A study of Mus musculus with 6 samples.

Results

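The genes described here carry out homologous recombination and the Fanconi anaemia pathway of DNA repair, together with the break sensors and checkpoint kinases that act with them. The members were 39 genes named by symbol, and each matched 1 of the 31053 features of the count matrices. They were *Brca1*, *Bard1*, *Palb2* and *Brca2*, the strand exchange helpers *Rad51b*, *Rad51c*, *Xrcc2*, *Xrcc3*, *Rad51ap1*, *Rad54l* and *Rad54b*, the resolving enzymes *Blm*, *Rmi1*, *Rmi2*, *Eme1* and *Mus81*, the Fanconi genes *Fanca*, *Fancb*, *Fancc*, *Fance*, *Fancg*, *Fancl*, *Fancm*, *Ube2t*, *Fancd2*, *Fanci* and *Brip1*, the sensors *Mre11a*, *Rad50*, *Nbn*, *Rbbp8*, *Atm*, *Mdc1* and *Trp53bp1*, and the checkpoint genes *Atr*, *Topbp1*, *Clspn*, *Chek1* and *Chek2*. In the GENCODE M21 annotation of GRCm38 they lie on 16 chromosomes, of which chromosome 11 holds 6 and chromosomes 4 and 9 hold 5 each. The data were 6 single cell RNA-seq libraries of mouse splenic B-cells labelled as germinal center (GC) B-cells, 3 per genotype. All of them carried Cγ1-Cre, a recombinase switched on in B-cells as these join the GC reaction. The 3 libraries written *Smc3* wt/wt came from Cre-carrying controls, and the 3 written *Smc3* wt/- carried in addition 1 conditional *Smc3* allele, so that *Smc3* loss was directed to B-cells and was heterozygous. *Smc3* encodes a core subunit of cohesin. By the study's methods, the mice had been immunized with sheep red blood cells, which start a GC reaction, and spleen cells were sorted from them. Those methods count mice for each genotype but do not tie them to libraries, and the labels gave no age, sex or number of mice per library, so that the spread between libraries may be partly technical.

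Homologous recombination copies an intact sister chromatid to mend a broken one, and for that reason it is used mainly while cells replicate their DNA and afterwards. The Fanconi pathway recognizes crosslinked or stalled forks and hands the lesion to the same recombination enzymes. GC B-cells divide rapidly and acquire breaks in their own immunoglobulin genes, and the study asked how loss of 1 *Smc3* allele changed such cells.

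The libraries held 22939 cell barcodes, of which 20847 were kept, from 1013 to 4971 per library, with a median of 3329 to 6220 unique molecular identifiers (UMIs) per cell. Between 4 and 43 barcodes were shared by any pair of libraries. Replicate 2 of *Smc3* wt/- stood apart. Its immunoglobulin share of UMIs was 51.9%, whereas the remaining libraries had 2.37% to 3.90%, and it held most of the plasma cell-like and myeloid-like cells. The GC B-cell gene *Mef2b* stood at 25.5 counts scaled to library size, written CPM, in that library, over all kept cells, against 452 to 636 CPM in the others, which goes against its label as GC B-cells. Levels are therefore given as CPM of the UMIs outside immunoglobulin genes, and results by genotype are given with and without that library. *Smc3* itself, the targeted gene, measured 170, 176 and 164 CPM in GC B-like cells of *Smc3* wt/wt, and *Smc3* wt/- gave 161, 127 and 184 CPM. Its log2 fold change of -0.08 ± 0.15 (SE) did not pass the test (adjusted p = 0.99997 by edgeR). Reads come from the 3′ end of transcripts and do not show directly whether an upstream exon was removed. A lower level of the whole transcript could still be seen in them. The *Smc3* wt/- libraries lay on both sides of the control range, so that this level did not separate the genotypes and does not check the labels. Why it did not separate them was not tested.

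Cells were clustered on other genes, with the 39 members and further repair genes left out of the clustering. Of the kept cells, 11909 fell into GC B-like classes, namely 6488 S-phase GC B-like, 2730 centroblast (CB)-like, 1253 centrocyte (CC)-like and 1438 recycling-like cells. A further 1855 cells were naive or memory B-like, 568 plasmablast (PB)-like and 1501 plasma cell (PC)-like. A cluster of 3746 cells led by haemoglobin genes and low in cell cycle transcripts received no name. All 39 members were detected in GC B-like cells, from 452 UMIs for *Xrcc2* to 8785 UMIs for *Clspn*.

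The summed level of the repair genes was highest in the class named S-phase GC B-like from its markers. Summed over the 39 members, the level in S-phase GC B-like cells was 1272, 1245 and 1242 CPM for *Smc3* wt/wt, while *Smc3* wt/- gave 1285, 1128 and 1256 CPM. In recycling-like cells the mean was 1035 ± 95.2 CPM (SD, n = 6), in CC-like cells 749 ± 119 CPM, and in CB-like cells, which had the highest sum of G2 and M phase transcripts, 741 ± 47.5 CPM. PB-like cells held 644 ± 145 CPM, the haemoglobin-led cluster 439.6 ± 82.6 CPM and naive or memory B-like cells 431 ± 87.6 CPM. The S-phase libraries lay between 1128 and 1285 CPM and did not overlap the libraries of the CB-like and CC-like cells, which lay between 518 and 837 CPM. The CB-like class joined a cluster of 1172 cells, whose members summed to 899.7 ± 76.4 CPM and lay above CC-like cells in 6 of 6 libraries, and a cluster of 1558 cells, at 542 ± 56.5 CPM and below CC-like cells in 6 of 6 libraries, so that its mean covers both. The S-phase class joined a cluster led by replication genes such as *Cdc6* and *Mcm6*, at 1176 ± 56.0 CPM, and a cluster led by histone genes together with Nusap1 and *Top2a*, at 1298 ± 60.3 CPM. A list of 20 genes of G2 and M phase summed to 1494 to 1877 CPM in the replication-led and 5847 to 7705 CPM in the histone-led cluster, beside 4382 to 5146 CPM in the larger and 10576 to 12565 CPM in the smaller CB-like cluster, so that the histone-led cluster also held transcripts of later phases. A list of 20 S phase genes was likewise highest in S-phase GC B-like cells, at 5395 ± 896 CPM, and lowest of the classes plotted in naive or memory B-like cells, at 1099 ± 530 CPM, but the order differed in between. Unlike the members, that list was not left out of the clustering, so that its height in the S-phase class is partly given. CC-like cells held 3093 ± 808 and CB-like cells 1639 ± 437 CPM of that list, and the replication-led cluster held 6520 ± 1188 CPM, above the 4306 ± 692 CPM of the histone-led cluster. In replicate 2 of *Smc3* wt/- both sums were the lowest of the 6 libraries in each of the 8 classes plotted.

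**Figure D1:**
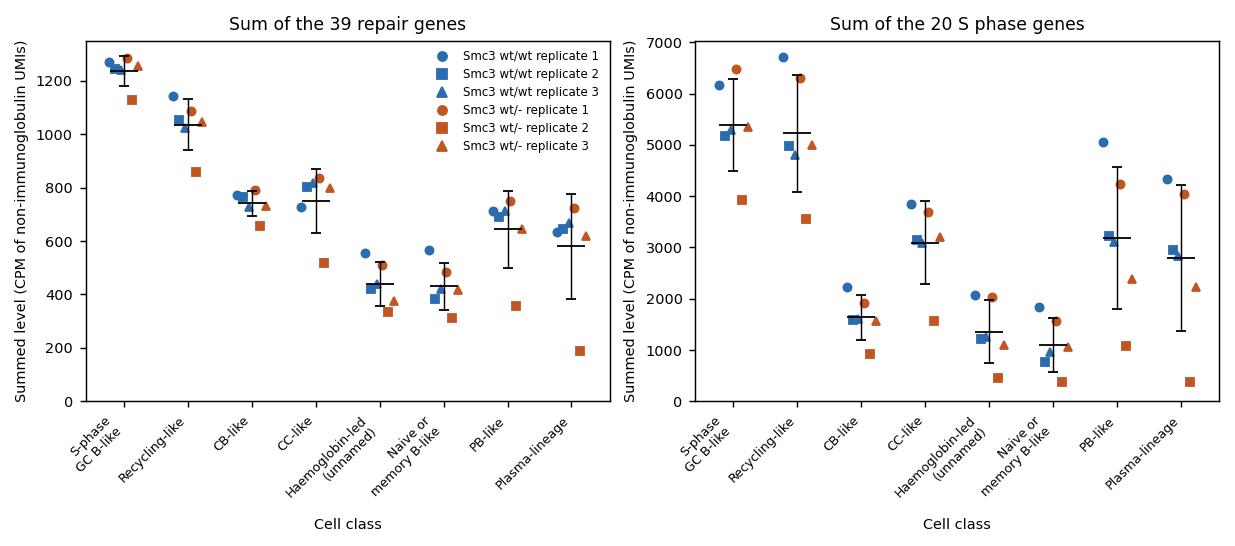
Summed level per library in CPM of non-immunoglobulin UMIs for the 39 repair genes (left) and for 20 S phase genes (right), by cell class. Points are libraries, and black bars are the mean and SD of 6 libraries. Repair genes lay at 1128 to 1285 CPM in S-phase GC B-like cells and at 312 to 567 CPM in naive or memory B-like cells.

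Gene by gene, the same cells led. Over 8 classes, counting the replication-led and the histone-led S-phase clusters apart, 28 of the 39 members had their highest mean in 1 of those S-phase clusters, 12 of them in the replication-led and 16 in the histone-led one. Of the 9485 genes with a highest class mean of at least 5 CPM, which all members reached, 14.4% were highest in 1 of those clusters. For 4 of the 39 members the libraries of the highest class did not overlap those of the next class, against 8.05% of all genes, and against 0.432% that also had their highest mean in an S-phase cluster, as those 4 members did. These were *Rad51ap1*, *Ube2t*, *Brip1* and *Chek1*. The other highest classes were recycling-like for *Xrcc2*, *Xrcc3*, *Nbn* and *Atm*, CC-like for *Fanca*, *Mre11a* and *Atr*, the haemoglobin-led cluster for *Fancc* and *Trp53bp1*, CB-like for *Mus81* and PB-like for *Fance*, in each case with overlap between neighbouring classes. The ratio of the highest to the lowest class mean ran from 1.64 for *Fance* to 30.5 for *Fancd2*, with a median of 3.52.

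**Figure D2:**
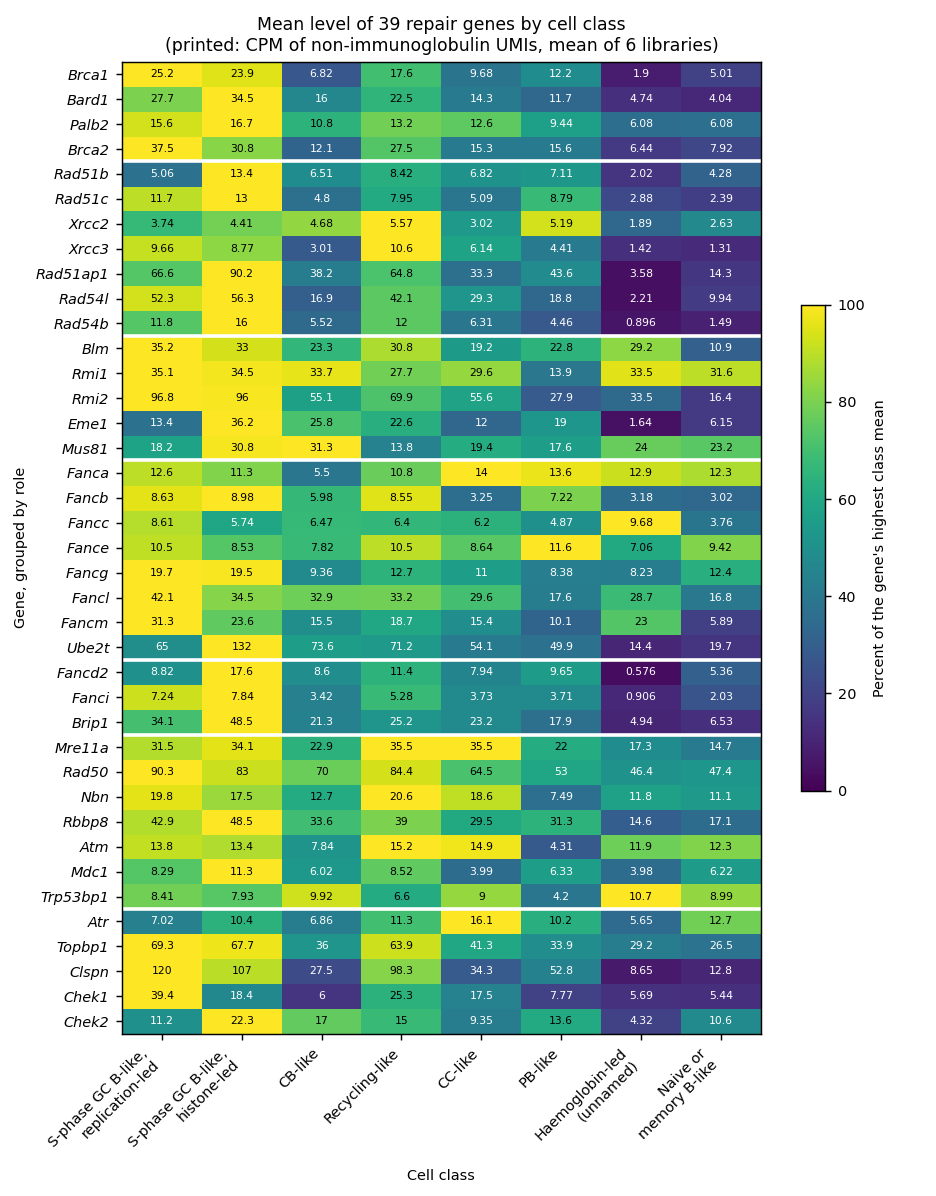
Mean level of each repair gene in 8 cell classes, with genes grouped by role. Printed values are CPM of non-immunoglobulin UMIs (mean of 6 libraries), and the colour is the percent of the highest class mean of that gene. The S-phase columns hold the highest value for 28 of 39 genes.

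The S-phase GC B-like cells were then compared with CC-like cells, the light zone state, within each library. The classes were defined by other transcripts of the same cells, so that these differences are a description without a test. A gene was counted as past the fold where the mean difference of log2(CPM + 1) was at least 1 and had the same sign in every library, among genes with a mean level of at least 5 CPM over both classes. Of the 38 members that reached that level, 13 were higher in S-phase GC B-like cells and 0 were lower, against 3.85% of all 8241 genes higher and 3.57% lower. Of the 13, *Fancb*, *Fanci* and *Mdc1* had CC-like means under 5 CPM, on 30, 33 and 35 UMIs in all. They reached that level only through the S-phase class. The median difference of the members was 0.80, beside 0.04 over all genes. Without replicate 2 of *Smc3* wt/-, whose CC-like sum rested on 97 cells, the count was 8 of 38, the median 0.62 and the share of all genes 3.15%, and *Bard1*, *Rad54b*, *Blm*, *Fancm* and *Fanci* were then no longer past the fold. With a pseudocount of 10 CPM, which shrinks differences of low genes, 2 members passed, against 1.20% of all genes.

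The largest mean difference was that of *Clspn*, which encodes claspin, the adaptor through which *Atr* activates *Chek1* at stalled forks. In S-phase GC B-like cells *Clspn* measured 95.1, 127 and 128 CPM for *Smc3* wt/wt, with 98.1, 108 and 125 CPM for *Smc3* wt/-. In CC-like cells it measured 36.8, 41.8 and 43.8 CPM and 30.2, 13.3 and 40.0 CPM, the *Smc3* wt/wt libraries being given first here and below, so that the classes did not overlap. The difference was 1.78 ± 0.57 on the log2 scale (SD, n = 6) and 1.55 without replicate 2 of *Smc3* wt/-. The other checkpoint genes had smaller mean differences. *Chek1*, the kinase that restrains origin firing, differed by 0.71 ± 0.26 and was higher in 6 of 6 libraries, and *Topbp1*, an activator of *Atr*, by 0.75 ± 0.52. *Chek2*, the kinase downstream of *Atm*, differed by 0.94 ± 0.69. *Atr* went the opposite way, by -0.60 ± 0.50, and was lower in S-phase GC B-like cells in 6 of 6 libraries. Its CC-like levels were 6.13, 12.2 and 15.5 CPM for *Smc3* wt/wt, with 8.45, 44.5 and 10.0 CPM for *Smc3* wt/-, where the value of 44.5 CPM, from replicate 2, lay far above the others and rested on 20 UMIs.

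The genes of the *Brca1* and *Brca2* axis were among those past the fold. *Brca1*, a ubiquitin ligase subunit that directs broken ends into recombination, measured 24.2, 26.7 and 28.4 CPM and 20.7, 20.2 and 27.3 CPM in S-phase GC B-like cells of *Smc3* wt/wt and *Smc3* wt/-. In CC-like cells *Brca1* stood at 9.19, 12.8 and 8.25 CPM and at 8.45, 8.89 and 10.5 CPM. All 6 S-phase values exceeded all 6 CC-like values, and the difference of 1.26 ± 0.23 had the smallest spread of the 13 members past the fold. *Bard1*, the partner of *Brca1* in the ligase, differed by 1.14 ± 0.75, and *Brca2*, which prepares the broken strand for exchange, by 1.17 ± 0.46. *Palb2*, which bridges *Brca1* and *Brca2*, differed by 0.42 ± 0.61 and was not past the fold.

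Among the strand exchange helpers, *Rad51ap1*, which promotes the pairing of homologous strands, measured 70.2, 84.5 and 82.2 CPM and 78.3, 71.3 and 84.6 CPM in S-phase GC B-like cells. In CC-like cells it measured 27.6, 32.2 and 36.1 CPM and 45.9, 22.2 and 35.8 CPM, again without overlap, for a difference of 1.24 ± 0.29. The translocase gene *Rad54l* differed by 0.92 ± 0.34, in 6 of 6 libraries. Its relative *Rad54b*, at 1.40 ± 1.26, and *Rad51c*, at 1.22 ± 0.67, were past the fold, but *Rad54b* rested on 63 CC-like UMIs in all, with 1 and 0 UMIs in replicate 1 of *Smc3* wt/wt and replicate 2 of *Smc3* wt/-. *Rad51c* rested on 47 CC-like UMIs, with 1 UMI in each of those libraries. Of the remaining helpers, *Rad51b* at 0.52 ± 0.82 and *Xrcc3* at 0.60 ± 0.47, were not past the fold, and *Xrcc2* stayed below the level required.

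**Figure D3:**
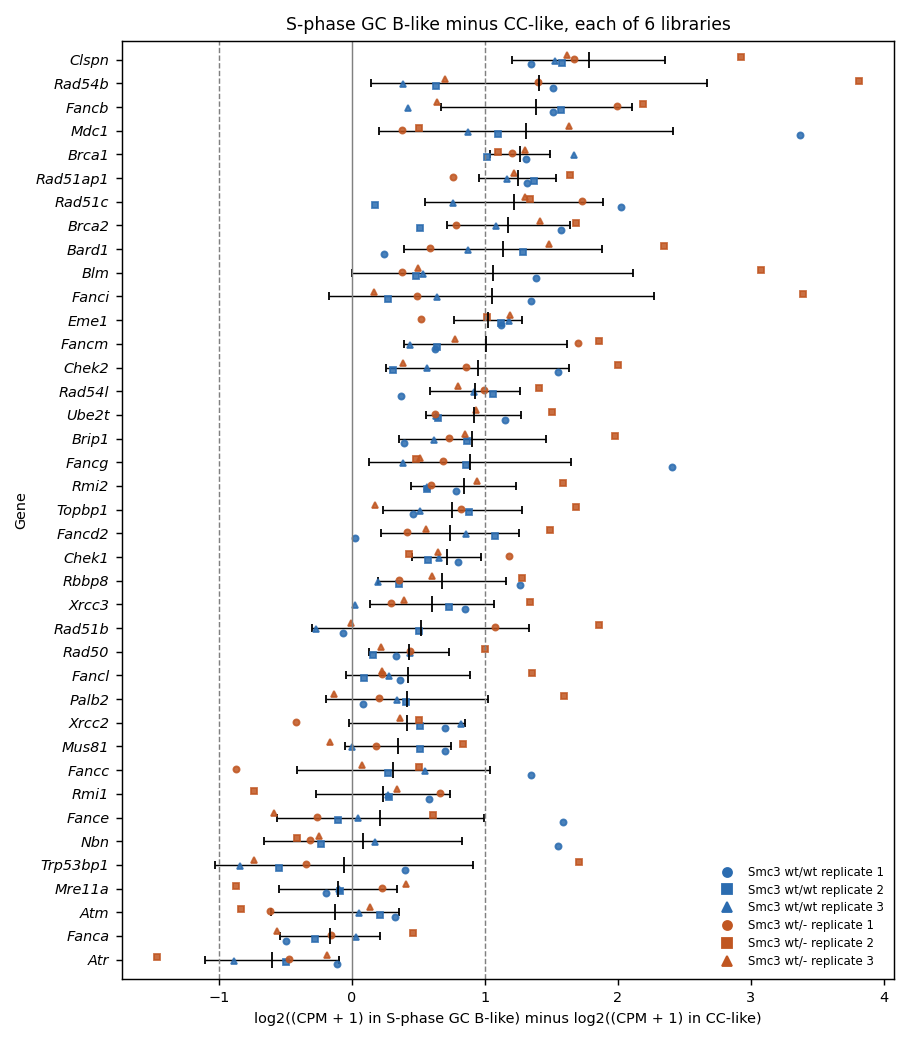
Difference of log2(CPM + 1) between S-phase GC B-like and CC-like cells for each of the 39 repair genes. Points are the 6 libraries, black bars are the mean and SD, and dashed lines mark a difference of 1 in either direction. Clspn had the highest mean, 1.78, and Atr the lowest, -0.60, and points of replicate 2 of Smc3 wt/- often lay at the edge.

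Of the enzymes that take recombination intermediates apart, *Eme1*, the partner of the nuclease *Mus81*, differed by 1.02 ± 0.26 and was higher in 6 of 6 libraries. *Mus81* differed by 0.34 ± 0.40. The helicase gene *Blm*, at 1.06 ± 1.06, was past the fold through replicate 2 of *Smc3* wt/- with a difference of 3.07, and was 0.65 without that library. *Rmi1* and *Rmi2*, which stabilize the *Blm* complex, differed by 0.23 ± 0.50 and 0.84 ± 0.40.

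In the Fanconi core complex, which ubiquitinates the *Fancd2* and *Fanci* pair, *Fancb* differed by 1.39 ± 0.72 and *Fancm*, the translocase that anchors the complex on DNA, by 1.01 ± 0.61. *Fancb* is expressed at a low level, with 30 UMIs in all CC-like cells. *Fancg* differed by 0.89 ± 0.76, while *Fancl* (the ligase subunit), *Fancc*, *Fance* and *Fanca* differed by 0.42 ± 0.47, 0.31 ± 0.73, 0.21 ± 0.78 and -0.17 ± 0.38. *Ube2t*, the conjugating enzyme of the pathway, was not past the fold at 0.92 ± 0.36, although its S-phase values of 110, 89.3 and 93.3 CPM for *Smc3* wt/wt, with 123, 71.3 and 106 CPM for *Smc3* wt/-, were higher than the CC-like values in every library. Those CC-like values were 49.0, 56.7 and 59.8 CPM and 79.7, 24.5 and 55.2 CPM. Downstream, *Fancd2* differed by 0.73 ± 0.52, the helicase gene *Brip1* by 0.91 ± 0.56 and *Fanci* by 1.05 ± 1.22, the last resting on 33 CC-like UMIs.

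The sensors of double-strand breaks had the lowest median difference of the 7 roles, 0.08, and *Mdc1*, the reader of phosphorylated H2AX, was the only sensor past the fold, at 1.31 ± 1.10 with 35 CC-like UMIs. *Rad50*, a subunit of the end-binding complex, measured 88.9, 80.6 and 84.7 CPM and 81.8, 98.7 and 84.7 CPM in S-phase GC B-like cells and 70.4, 72.0 and 62.4 CPM and 60.4, 48.9 and 72.6 CPM in CC-like cells. That is a difference of 0.43 ± 0.30, in the same direction in 6 of 6 libraries. The remaining subunits *Mre11a*, at -0.11 ± 0.44, and *Nbn*, at 0.08 ± 0.75, differed by less than the spread between libraries, as did *Atm*, the kinase they recruit, at -0.13 ± 0.48, and *Trp53bp1*, which protects ends from resection, at -0.06 ± 0.97. *Rbbp8*, which starts resection, differed by 0.67 ± 0.48.

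Promoters of the members at either end of this order are shown because several members differed together between the classes. Of the 3 members with the largest and the 2 with the smallest difference, RefSeq entries (GRCm38.p6, 250 bases before to 50 bases after the transcription start) were used for *Clspn* at chr4:126556730-126557029 (plus strand), *Fancb* at chrX:164980342-164980641 (plus strand), *Fanca* at chr8:123318527-123318826 (minus strand) and *Atr* at chr9:95857347-95857646 (plus strand). *Rad54b* was the remaining member. Capitals mark matches to motifs of cell cycle promoters, the E2F sites TTTCCCGC, TTTGGCGC, TTTGCCGC and TTTCGCGC, the cell cycle homology region TTTGAA and the CCAAT box CCAAT, each searched on both strands.
Clspn: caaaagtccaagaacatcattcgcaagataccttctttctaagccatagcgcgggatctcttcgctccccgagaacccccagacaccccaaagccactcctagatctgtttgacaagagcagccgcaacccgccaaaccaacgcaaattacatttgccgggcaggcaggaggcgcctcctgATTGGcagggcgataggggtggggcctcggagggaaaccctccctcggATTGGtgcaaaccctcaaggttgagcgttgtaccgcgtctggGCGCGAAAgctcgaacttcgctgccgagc
Fancb: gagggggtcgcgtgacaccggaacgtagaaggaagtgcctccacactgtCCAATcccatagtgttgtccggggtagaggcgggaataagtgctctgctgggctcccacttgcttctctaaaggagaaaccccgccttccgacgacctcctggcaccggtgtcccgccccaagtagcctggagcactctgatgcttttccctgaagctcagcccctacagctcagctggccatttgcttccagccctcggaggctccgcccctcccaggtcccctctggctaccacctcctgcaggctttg
Fanca: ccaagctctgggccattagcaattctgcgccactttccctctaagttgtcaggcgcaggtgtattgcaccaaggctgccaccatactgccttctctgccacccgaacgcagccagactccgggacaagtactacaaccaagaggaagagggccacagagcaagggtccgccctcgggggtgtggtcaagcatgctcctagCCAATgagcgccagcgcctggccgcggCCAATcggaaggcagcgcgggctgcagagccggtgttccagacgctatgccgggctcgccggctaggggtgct
Atr: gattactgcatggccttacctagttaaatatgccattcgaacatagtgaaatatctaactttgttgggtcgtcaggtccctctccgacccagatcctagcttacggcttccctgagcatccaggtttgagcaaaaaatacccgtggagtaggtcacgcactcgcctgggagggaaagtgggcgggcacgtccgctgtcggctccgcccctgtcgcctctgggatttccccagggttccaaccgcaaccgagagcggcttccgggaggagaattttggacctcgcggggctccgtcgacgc

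The *Clspn* promoter held a reverse E2F match, GCGCGAAA, 22 bases into the transcript, and reverse CCAAT boxes at -69 and -21. The *Fancb* promoter held a CCAAT box at -201 and that of *Fanca* CCAAT boxes at -50 and -23, and the *Atr* window held no match to these letters. No match overlapped another. Across the 32 members with a promoter entry, an E2F match was found for 9, namely *Bard1*, *Brca2*, *Chek2*, *Clspn*, *Fancg*, *Mdc1*, *Rad51c*, *Rmi1* and *Topbp1*, whereas 2.26% of all 32851 promoters held one and, counted by gene, 2.60% of 27025 genes. A CCAAT box was found for 20 of the 32 members, in 37.4% of all promoters and for 41.1% of genes, and TTTGAA for 3 of the 32 members, in 17.9% of all promoters and for 20.2% of genes. A match describes these letters and does not show that a factor binds.

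Within the S-phase GC B-like class the replication-led and histone-led clusters were compared with each other, a comparison added after the data had been seen. The median difference of the members was -0.06. Of 38 members, 1 was past the fold in the replication-led cluster, against 1.24% of all genes, and 3 in the histone-led cluster, against 2.42%. *Chek1* was the member higher in the replication-led cluster, with a mean of 39.4 ± 2.33 CPM there and 18.4 CPM in the histone-led cluster, a difference of 1.07 ± 0.17. *Ube2t*, at -1.02 ± 0.10, *Eme1*, at -1.43 ± 0.43, and *Rad51b*, at -1.26 ± 0.73, were higher in the histone-led cluster in 6 of 6 libraries. *Fancd2*, at -0.92 ± 0.21, and *Chek2*, at -0.96 ± 0.47, lay in the same direction in 6 of 6 libraries. *Clspn* differed by 0.16 ± 0.08. In CB-like cells *Eme1* measured 25.8 ± 5.24 CPM and *Chek1* 6.0 ± 3.2 CPM.

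Against CC-like cells, CB-like cells were past the fold for 1 of 34 members that were higher, *Eme1* at 1.06 ± 0.46, where 6.21% of all genes were higher, and for 2 that were lower, *Chek1* at -1.67 ± 1.48 and *Fanca* at -1.43 ± 0.76, where 6.33% of all genes were lower. Without replicate 2 of *Smc3* wt/- 0 members were higher and 2 were lower. *Chek1* and *Fanca* had 0 CB-like UMIs in that library, so that the pseudocount set the size of their differences there. No test of the shares of members and of all genes was made, and the members had a median difference of -0.04. In recycling-like cells 2 of 37 members were higher, *Clspn* at 1.56 ± 0.36 and *Fancb* at 1.30 ± 0.72, against 1.96% of all genes, and 0 were lower, against 4.81%. *Fancb*, with a CC-like mean under 5 CPM on 30 UMIs in all, reached the required level only through recycling-like cells.

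In naive or memory B-like cells the members stood low. Compared with CC-like cells, 10 of 32 members were lower past the fold and 0 were higher, against 8.98% and 6.88% of all genes. The 10 were *Brip1*, *Chek1*, *Rmi2*, *Bard1*, *Rad54l*, *Rad51ap1*, *Clspn*, *Ube2t*, *Mre11a* and *Palb2*, from -1.85 ± 0.53 for *Brip1* to -1.08 ± 0.71 for *Palb2*. Of these, *Bard1* had a naive or memory B-like mean of 4.04 CPM and reached the required level only through CC-like cells. Compared directly with S-phase GC B-like cells, a comparison added after the data had been seen, 22 of 37 members were higher in the S-phase class, against 10.8% of all genes, and 0 were lower, against 8.11%, and the median difference was 1.49 beside 0.12 over all genes. Of the 22, *Bard1*, *Rad51c*, *Xrcc3*, *Rad54b* and *Fancb* reached the required level only through the S-phase class, their naive or memory B-like means being under 5 CPM on 16, 12, 8, 6 and 18 UMIs in all, and with a pseudocount of 10 CPM the count was 16 of 37, against 6.80% of all genes. *Clspn* differed by 3.29 ± 1.06, *Bard1* by 2.88 ± 1.11, *Rad51ap1* by 2.84 ± 1.41 and *Brip1* by 2.75 ± 0.88, each in 6 of 6 libraries. The naive or memory B-like values of *Clspn*, *Rad51ap1* and *Brip1* rested on 57, 59 and 27 UMIs in all, so that the sizes of these differences, like that of *Bard1*, depend on few UMIs. Among the mean differences smaller than the spread between libraries were those of *Fance*, at 0.05 ± 0.41, *Mus81*, at 0.09 ± 0.23, *Rmi1*, at 0.12 ± 0.53, and *Atm*, at 0.17 ± 0.51. *Trp53bp1* had a mean of 0.00 ± 1.06, but its libraries ran from -1.11 to 1.91. *Atr* was lower in the S-phase class in 6 of 6 libraries, at -0.50 ± 0.26.

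**Figure D4:**
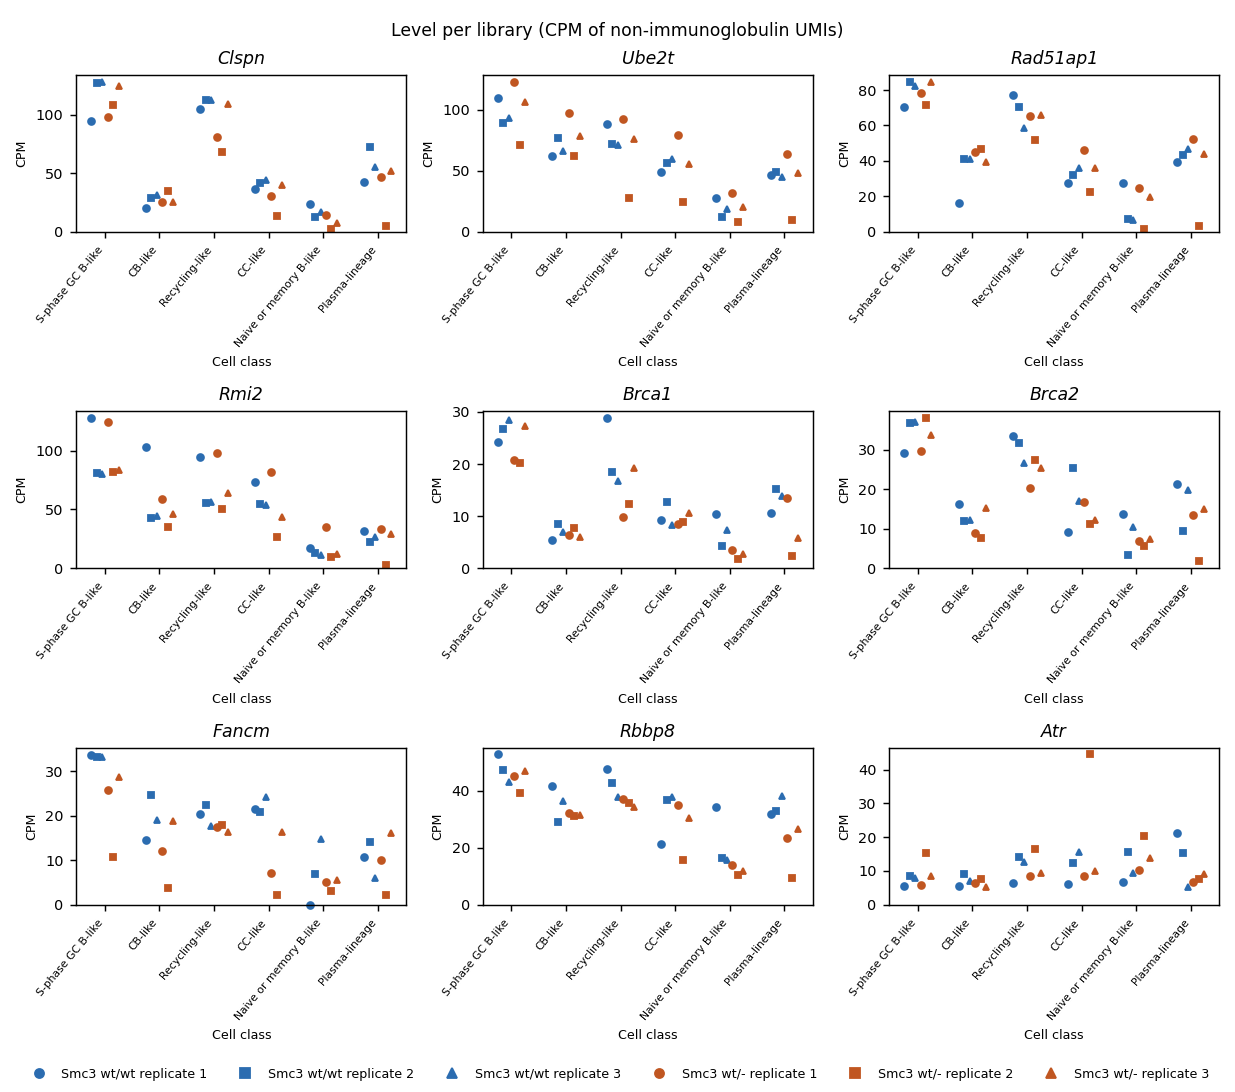
Level of 9 repair genes in CPM of non-immunoglobulin UMIs in 6 cell classes. Each point is 1 library, with blue for Smc3 wt/wt and orange for Smc3 wt/-. Clspn lay at 95.1 to 128 CPM in S-phase GC B-like cells and at 2.45 to 24.1 CPM in naive or memory B-like cells, while Atr showed no such order.

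Plasma-lineage cells joined cycling PB-like and PC-like cells, and the repair genes differed between these. Compared with CC-like cells, 6 of 35 members were lower in plasma-lineage cells and 0 higher, against 16.1% and 8.57% of all genes, so that the share of members that were lower was close to that of all genes. The 6 were *Atm* at -1.66 ± 0.47, *Chek1* at -1.44 ± 1.01, *Rmi2* at -1.38 ± 0.85, *Nbn* at -1.28 ± 0.42, *Rmi1* at -1.28 ± 0.63 and *Rad54l* at -1.08 ± 1.09. In PB-like cells alone 4 of 37 members were lower, against 14% of all genes, and 0 were higher, against 8.9%. They were *Atm*, *Nbn*, *Chek1* and *Rmi1*, with 0 of 6 libraries in the other direction. *Clspn* was retained at 52.8 CPM in PB-like cells, higher than in CC-like cells in 6 of 6 libraries by 0.60 ± 0.17. PC-like cells were numerous enough in 2 libraries only, replicate 3 of *Smc3* wt/wt and replicate 2 of *Smc3* wt/-, where the 39 members summed to 308 and 141 CPM, against 712 and 357 CPM in PB-like cells of the same libraries. In that comparison 17 of 27 members were higher in PB-like cells, against 23.8% of all genes, and 0 were lower, against 5.21%, and *Clspn* differed most, by 4.74 ± 1.75 (n = 2). Of those 17 members, 10 had a PC-like mean under 5 CPM, so that they reached the required level through PB-like cells.

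Other repair and replication genes were measured in the same way, but the DNA replication genes were not left out of the clustering. Some of them, such as *Cdc6* and *Mcm6*, were also markers that named the S-phase class. Their difference between the classes is therefore partly given by how the classes were made. Between S-phase GC B-like and CC-like cells, 8 of 36 DNA replication genes were past the fold, with a median difference of 0.83, close to the 0.80 of the members. A further list of 46 genes of recombination, the Fanconi pathway and damage signalling had 4 of 43 measured genes past the fold (*Cenps*, *Dna2*, *H2afx* and *Slx4*) and a median of 0.28. Mismatch and base excision repair genes had 1 of 20 higher (*Lig1*) and 1 lower, with a median of 0.20, and end joining genes 1 of 10 (*Lig4*), with a median of 0.21. In CB-like cells against CC-like cells 11 of 36 DNA replication genes were lower, with a median of -0.69. No test of the difference between lists was made.

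The comparison of genotypes asked whether the repair genes changed in *Smc3* wt/- cells. No member passed the test. UMIs were summed per library and class and tested with edgeR's quasi-likelihood test, 3 against 3 libraries, with Benjamini-Hochberg adjustment over all genes. The members tested were 39 in all GC B-like, S-phase GC B-like and recycling-like cells, 38 in CB-like, 32 in CC-like, 21 in naive or memory B-like and 20 in plasma-lineage cells, the others not passing edgeR's filter, which asks for a minimum level in enough libraries. In plasma-lineage cells *Fancg*, for example, was left out with 122 UMIs, of which 86 were in replicate 2 of *Smc3* wt/-, while *Brca1* was tested with 64 UMIs. The number of members called was 0 in every class, where 0% of all genes tested were called, and DESeq2 also called 0 members. At an unadjusted p under 0.05 stood 4 of 267 tests of a member, those over all kept cells included (*Fancm* in CC-like, *Clspn* in naive or memory B-like and *Brca1* and *Rbbp8* in plasma-lineage cells), and across all genes 184 of 10831 in GC B-like, 136 of 7498 in CC-like, 139 of 7053 in naive or memory B-like and 233 of 6004 in plasma-lineage cells. In GC B-like cells the log2 fold changes of the members ran from -0.52 to 0.29, with a median of -0.05 beside -0.0044 over all genes, and 12 were above and 27 below 0. With 1 library left out that median ran from -0.13, without replicate 3 of *Smc3* wt/-, to -0.03, without replicate 2 of *Smc3* wt/-. For the median member the 95% interval, before adjustment, reached 0.43 on the log2 scale to either side of its fold change. That is not the limit of detection of the adjusted test, which the fold change of -0.52 did not pass either. Changes of this size and larger may therefore have been missed.

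*Fancm* had the lowest fold change in GC B-like cells. It measured 25.5, 27.9 and 26.0 CPM for *Smc3* wt/wt, with 19.6, 10.5 and 22.7 CPM for *Smc3* wt/-. All *Smc3* wt/- values lay below all *Smc3* wt/wt values, and the lowest, 10.5 CPM, was that of replicate 2, from 24 UMIs. This gave a log2 fold change of -0.52 ± 0.23 (SE, adjusted p = 0.99997 by edgeR), with a 95% interval of -1.04 to 0.01, and -0.35 without replicate 2 of *Smc3* wt/-. In CC-like cells *Fancm* measured 21.4, 20.9 and 24.2 CPM against 7.24, 2.22 and 16.3 CPM, without overlap. The fold change there was -1.01 ± 0.40 (SE, adjusted p = 0.99995 by edgeR), with a 95% interval of -1.89 to -0.13 before adjustment. It was -0.80 without replicate 2 of *Smc3* wt/-, -2.03 without replicate 3 of *Smc3* wt/- and -0.46 without integration of the libraries. The CC-like values of *Smc3* wt/- rested on 6, 1 and 31 UMIs.

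*Brca1* measured 21.3, 20.4 and 20.02 CPM in GC B-like cells of *Smc3* wt/wt and 14.2, 14.0 and 20.1 CPM in those of *Smc3* wt/-, where replicate 3 lay within the control range. Its log2 fold change was -0.30 ± 0.18 (SE, adjusted p = 0.99997 by edgeR), and was -0.15 without replicate 1 and -0.54 without replicate 3 of *Smc3* wt/-. In plasma-lineage cells *Brca1* stood at 10.7, 15.2 and 13.8 CPM against 13.4, 2.26 and 5.77 CPM, with a fold change of -1.21 ± 0.53 (SE, adjusted p = 0.834 by edgeR) that was -0.68 without replicate 2 of *Smc3* wt/-, whose plasma-lineage cells were mostly PC-like, and the groups overlapped. *Clspn* had -0.20 ± 0.18 in GC B-like cells, with an adjusted p of 0.99997 by edgeR, and with 1 library left out ran from -0.37, without replicate 3 of *Smc3* wt/-, to -0.11, without replicate 1 of *Smc3* wt/-. In naive or memory B-like cells it measured 24.1, 12.1 and 16.8 CPM against 13.9, 2.45 and 7.34 CPM, a fold change of -1.26 ± 0.51 (SE, adjusted p = 0.9998 by edgeR). The groups overlapped, and without replicate 2 of *Smc3* wt/- the fold change was -0.74.

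*Rbbp8* in plasma-lineage cells measured 32.0, 32.8 and 38.1 CPM for *Smc3* wt/wt, with 23.5, 9.51 and 26.5 CPM for *Smc3* wt/-, without overlap. Its fold change was -0.77 ± 0.32 (SE, adjusted p = 0.834 by edgeR) and -0.53 without replicate 2 of *Smc3* wt/-. Among the members above 0 in GC B-like cells were *Atr* at 0.29 ± 0.46 and *Fancg* at 0.19 ± 0.15, both with an adjusted p of 0.99997 by edgeR. *Atr* measured 5.89, 10.3 and 9.52 CPM against 6.91, 20.6 and 8.36 CPM, where replicate 2 was the only *Smc3* wt/- library above the control range, and without that library the fold change was -0.28. *Fancg* was 0.07 without replicate 1 of *Smc3* wt/- and 0.26 without replicate 2.

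**Figure D5:**
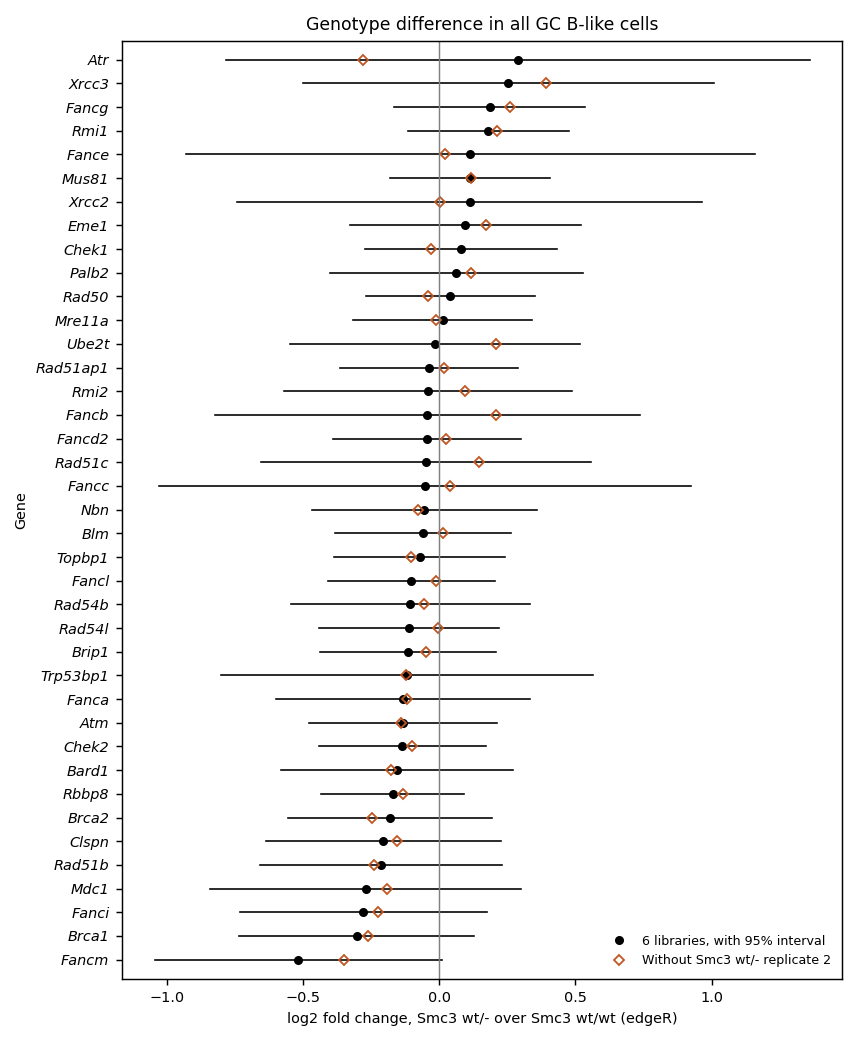
Log2 fold change of Smc3 wt/- over Smc3 wt/wt for each repair gene in GC B-like cells (edgeR). Filled circles and lines are the estimate from 6 libraries with its 95% interval, worked back from the p-value, and open diamonds the estimate without replicate 2 of Smc3 wt/-. All 39 intervals include 0, and the lowest estimate is that of Fancm at -0.52.

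Counting members whose libraries did not overlap, 4 of 39 were lower in *Smc3* wt/- GC B-like cells, namely *Brca2*, *Fanci*, *Fancm* and *Rbbp8*, where 4.41% of all genes tested were, and 0 were higher, where 3.88% were. In S-phase GC B-like cells 2 were lower (*Chek2* and *Fancm*, against 4.62% of all genes) and 2 higher (*Chek1* and *Fancd2*, against 3.75%). CB-like cells had 0 lower, against 4.97%, and 1 higher (*Atm*, against 4.03%), and CC-like cells 1 lower (*Fancm*, against 4.35%) and 1 higher (*Rmi1*, against 3.28%). Recycling-like cells had 1 lower (*Rbbp8*, against 3.69%) and 0 higher, against 4.03%. In naive or memory B-like cells 2 were lower (*Chek2* and *Rbbp8*, against 3.43%) and 1 higher (*Mus81*, against 2.71%), and in plasma-lineage cells 1 was lower (*Rbbp8*, against 4.96%) and 0 higher, against 2.85%. *Fancm* recurred in GC B-like, S-phase and CC-like cells, and *Rbbp8* in GC B-like, recycling-like, naive or memory B-like and plasma-lineage cells, where the GC B-like sum contains the cells of its classes.

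Sums that mixed cell types looked different. Over all kept cells the members summed to 990, 958 and 957 CPM for *Smc3* wt/wt, with 1012, 326 and 952 CPM for *Smc3* wt/-, so that replicate 2 lay far below the others, while replicate 1 lay above and replicate 3 just below the control range. The median log2 fold change of the 39 members was -0.30, and was -0.03 without replicate 2 and -0.48 without either replicate 1 or replicate 3 of *Smc3* wt/-. In these sums 6 of 39 members did not overlap and were lower, against 5.26% of all genes, with 0 higher, against 2.34%. In such sums alone fewer cells of a type and less RNA per cell cannot be told apart. GC B-like cells were 9.97% of the kept cells in replicate 2 of *Smc3* wt/-, against 63.9% to 70.1% in the other libraries. Sums within the GC B-like classes are given above. In plasma-lineage cells 19 of 20 members were below 0 with a median of -0.51, whereas without replicate 2 of *Smc3* wt/- the median of the 23 members tested was 0.03 with 12 above 0. Without replicate 3 of *Smc3* wt/- it was -0.99, with 19 of 21 members below 0. Of the 1749 plasma-lineage cells of replicate 2 of *Smc3* wt/- 1417 were PC-like, whereas the other libraries held 12 to 23 PC-like cells among 35 to 83, so that mostly PC-like cells there stood against mostly PB-like cells elsewhere. In replicate 2 of *Smc3* wt/- the S phase list summed to 375 CPM in plasma-lineage cells, against 2222 to 4343 CPM in the others. Markers of myeloid cells (13 genes) summed to 593 CPM in the GC B-like cells of replicate 2 of *Smc3* wt/-, against 7.86 to 12.1 CPM in the others, and 6 erythroid genes to 1332 CPM against 60.7 to 512 CPM. Their part in the genotype values was not tested.

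Whether the genotype difference itself depended on the state was tested as an interaction between S-phase GC B-like and CC-like cells, with library as a block. Of the 39 members, 0 were called by edgeR and 0 stood at an unadjusted p under 0.05, and across all 8640 genes 0% were called and 304 stood at p under 0.05. *Fancm* had an interaction of 0.52 ± 0.29 on the log2 scale (SE, adjusted p = 0.9999 by edgeR).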

How the data were processed

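The deposited count files held, per library, whole-number UMI counts of genes by cell barcode, which the authors made with Cell Ranger from 10x libraries, with mm10 as the build in the submitters' processing notes. Those notes also name R 4.0.2 and Seurat 4.0.0. Total UMIs per library ran from 5223325 to 35354257. Cells with at least 500 genes and at most 10% mitochondrial UMIs were kept, and 721 doublets were removed with Scrublet as run in scanpy 1.11.5, the expected doublet rate rising with the number of cells. Libraries were integrated and clustered with Seurat 5.3.0 (2000 variable genes, 30 components, 20 neighbours, resolution 0.5), with the members, further repair genes and immunoglobulin, mitochondrial and ribosomal genes left out. Clusters were named from marker lists. UMIs outside immunoglobulin genes were summed per library and class. Class differences used log2(CPM + 1), with the SD over libraries and no test, since the classes come from the same cells.

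Genotypes were compared with edgeR 4.0.16 (quasi-likelihood, TMM, filterByExpr) in R 4.3.3, in classes where every library had at least 20 cells, with DESeq2 1.42.0 and limma 3.58.1 as alternatives. The scripts were tested on simulated data. A member was named by genotype where p was under 0.05 in a class, or among the 5 largest fold changes in GC B-like cells with at least 20 UMIs per library. The members and gene lists were chosen with earlier results of these data known. Neither the labels nor the study's methods tie each library to a mouse, and p-values then measure the spread between these libraries. Same-numbered libraries deviated together in every pair of each class tested, with correlations from 0.067 (replicate 2, CB-like cells) to 0.266 (replicate 1, naive or memory B-like cells). They were 0.238, 0.149 and 0.169 in S-phase GC B-like and 0.266, 0.184 and 0.130 in naive or memory B-like cells. Over all kept cells they were 0.055, -0.144 and 0.281. The printed genotype values are from the fit without a replicate block, which was added in every class as an alternative. Further wild-type libraries that the study integrated were not analysed here.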

Additional observations from a re-analysis of the deposited data

How the results depend on the processing

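The number of members called by genotype stayed at 0 in each class under each alternative run, with a smallest adjusted p of 0.392 over 4254 tests (edgeR and DESeq2). Adding the replicate block changed no member call, and called 4 genes in CB-like cells and 0 in S-phase GC B-like or naive or memory B-like ones. Across all genes, where 0 were called, DESeq2 called 2 in GC B-like and 1 in S-phase GC B-like cells. Without the low-count filter 15 genes were called in CB-like, 48 in CC-like, 12 in naive or memory B-like and 68 in plasma-lineage cells. Without integration 1 gene was called in GC B-like and 1 in CB-like cells, and with doublets kept 1 in CB-like cells. Leaving out 1 library gave 0 to 2 genes in CB-like cells, with 2 without replicate 1 of Smc3 wt/-. For the interaction it gave 0 to 4 genes, with 1, 4 and 3 without replicates 1, 2 and 3 of Smc3 wt/-. *Atr* in GC B-like cells turned from 0.29 to -0.28 without replicate 2 of Smc3 wt/- and to -0.19 without integration, and over all libraries left out in turn it ran from -0.28 to 0.63.

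Counts of members past the fold depended more on the settings. With a pseudocount of 10 CPM they were 2 higher in S-phase GC B-like than in CC-like cells, 0 higher and 0 lower in CB-like, 1 higher in recycling-like, 4 lower in naive or memory B-like and 0 lower in plasma-lineage cells. Without integration they were 4 for S-phase (in 5 libraries, without replicate 2 of Smc3 wt/-, which had under 20 such cells), 2 higher and 0 lower for CB-like and 16 lower for naive or memory B-like cells. At a resolution of 1, CB-like cells had 3 higher and 1 lower, with doublets kept 0 higher, and with the looser cell filter 1 lower. Plasma-lineage cells had 1 lower with the looser filter and 12 lower with immunoglobulin genes kept. TMM scaling gave 6 higher in recycling-like cells. Leaving out 1 library gave 8 to 14 higher for S-phase (8 without replicate 2 of Smc3 wt/-), 0 to 2 higher for CB-like (2 without replicate 2 of Smc3 wt/wt, 0 without replicate 2 of Smc3 wt/-), 2 to 5 higher for recycling-like (4 without replicate 3 of Smc3 wt/wt, 5 without replicate 1 of Smc3 wt/-) and 0 to 1 higher for naive or memory B-like cells (1 without replicate 1 of Smc3 wt/-). The causes were not tested. Genotypes in S-phase and recycling-like cells could not be tested without integration, because a library had under 20 cells, and the interaction already had library as its block. The comparison of S-phase with naive or memory B-like cells and those among S-phase clusters, PB-like and PC-like cells were chosen after seeing the data. Depth limits the values that rest on few UMIs, such as that of *Fancb* in CC-like cells, with 30 UMIs in all.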

Other observations

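T-cell-like cells, which no comparison used, held the 39 repair genes at a summed level of 433 ± 105 CPM (SD, n = 6 libraries), from 323 to 588 CPM, which overlapped the 312 to 567 CPM of naive or memory B-like cells. In contrast to the B-cell classes, replicate 2 of Smc3 wt/- had the highest T-cell-like sum. The S phase list summed to 1201 ± 439 CPM in T-cell-like cells. Myeloid-like cells were numerous enough in 1 library, replicate 2 of Smc3 wt/-, where the 39 genes summed to 255 CPM.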
